A study of Arabidopsis thaliana with 4 samples.

Results

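The actin family of Arabidopsis thaliana was followed here as the 8 actin genes ACT1, ACT2, ACT3, ACT4, ACT7, ACT8, ACT11 and ACT12, found by locus code among 27416 gene models. ACT2, ACT7 and ACT8 form the vegetative class and the other 5 the reproductive class. The data are RPKM values (reads scaled by gene model length and by the library's read total) from RNA sequencing of 4 poly(A) libraries made from Col-0 seedlings. All seedlings were cry1 mutants, so both groups lacked functional cryptochrome 1, a blue-light receptor, from its own locus. The CNT1 group (2 libraries) carried 35S::CNT1-NLS-YFP, in which CNT1, the photolyase homology region at the N terminus of CRY1, is joined to a nuclear localisation tag and to yellow fluorescent protein and driven by the broadly active 35S promoter. The CNT1-G283E group (2 libraries) carried 35S::CNT1-G283E-NLS-YFP, the same fusion with the G283E substitution. After 3 days in the cold and 12 h of white light, both received blue light (15 μmol/m2/s) for 4 days, and the labels give a growth time of 4.5 days. The comparison sets the fusion against its G283E variant, and every log2 difference below is CNT1 minus CNT1-G283E. The labels do not say whether the replicates were separate cultures, so the p-values cover only the spread among these libraries, which could be technical. Nor do they say whether each genotype was 1 line, so the transgene's insertion cannot be told apart from its sequence.

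Actin monomers assemble into filaments that carry myosin-driven transport of vesicles and organelles and that organise growth in expanding plant cells. Plants encode actin in a small family of near-identical proteins. In Arabidopsis, ACT2 and ACT8 are expressed in most vegetative tissues and are known for root-hair tip growth, and ACT7 is expressed in young growing tissue and responds to auxin. ACT1, ACT3, ACT4 and ACT12 are known mainly from pollen, and ACT11 from pollen and ovules. ACT2, ACT7 and ACT8 are also common internal references for measuring other transcripts, which assumes that their level does not change.

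The members are first compared as sequences, because reads can be credited to single genes only where the genes differ. Each encodes a protein of 377 residues. The first 60 coding bases of each gene, from RefSeq annotation of the TAIR10.1 assembly, are shown 5′ to 3′, with capitals where a base differs from the commonest base of the 8 genes at that position.
ACT2: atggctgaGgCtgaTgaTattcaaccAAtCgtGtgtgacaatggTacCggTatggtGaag
ACT8: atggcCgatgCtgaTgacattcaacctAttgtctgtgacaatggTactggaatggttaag
ACT7: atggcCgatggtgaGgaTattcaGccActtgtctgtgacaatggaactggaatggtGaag
ACT1: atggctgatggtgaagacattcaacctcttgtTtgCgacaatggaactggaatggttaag
ACT3: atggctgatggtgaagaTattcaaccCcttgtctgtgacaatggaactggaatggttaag
ACT11: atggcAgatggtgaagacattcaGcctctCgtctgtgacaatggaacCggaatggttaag
ACT4: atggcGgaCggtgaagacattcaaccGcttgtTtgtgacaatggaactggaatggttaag
ACT12: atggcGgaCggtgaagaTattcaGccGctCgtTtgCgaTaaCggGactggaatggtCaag
ACT1 and ACT3 encode identical proteins (0 residue differences), although their coding sequences differ at 108 of 1134 bases. ACT2 and ACT8 differ by 1 residue and 102 bases, and ACT4 and ACT12 by 1 residue and 137 bases. ACT7 stands apart from ACT2 by 28 residues and from ACT11 by 16. Over the 15 pairs of a vegetative with a reproductive gene, protein identity lay between 91.2% and 95.8% and coding identity between 78.3% and 83.8%.

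Differences at the base level were spread densely enough to separate the transcripts. Of all windows of 50 bases in the annotated transcripts, all in ACT2, all in ACT7 and 99.9% in ACT8 occurred at no other annotated locus on either strand. The share was 99.9% in ACT11, 99.7% in ACT3, 99.1% in ACT4 and 95.2% in ACT12. It was 84.0% in ACT1, where 281 windows were shared with AS1 (AT2G37630), a MYB-like regulator gene on the opposite strand that overlaps it. ACT12 overlaps RPP13 (AT3G46530), a disease resistance gene, in the same way with 64 shared windows. With windows of 25 bases, the unique share ranged from 73.0% in ACT1 to 97.1% in ACT7. Read length, the use of strand and the treatment of reads matching several genes are not stated in the sources used here, so the values of ACT1 and ACT12 are less certain than the others. The windows come from TAIR10.1 transcripts of 1851 bases (ACT1) and 1707 bases (ACT12). The lengths fitted to the RPKM values were shorter, 1618 and 1453 bases, so how much of either overlap was counted is not known.

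**Figure D1:**
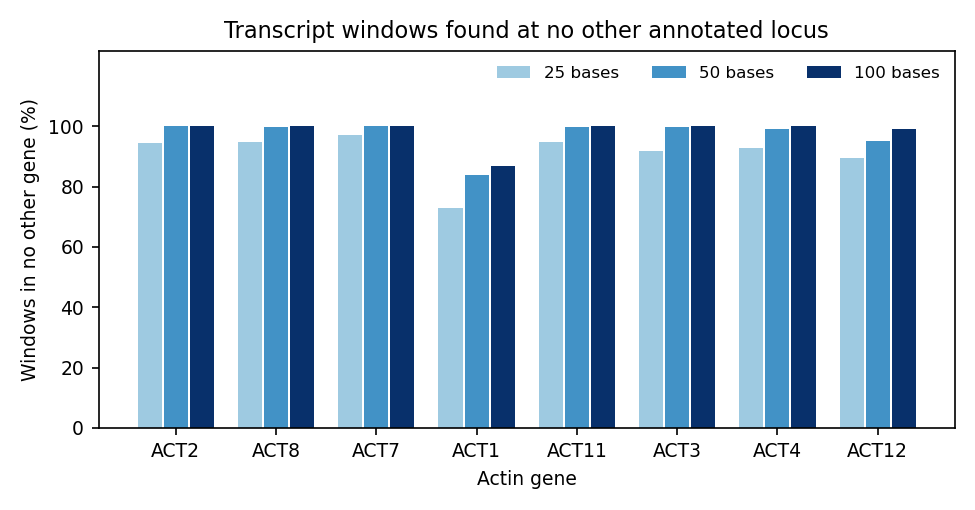
Percentage of windows of 25, 50 or 100 bases (bar colours) in each annotated actin transcript that occur at no other annotated locus, on either strand, in TAIR10.1. The vegetative genes had at least 99.9% unique windows from 50 bases on, and ACT1, which overlaps AS1, was lowest at every length.

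The vegetative genes made up nearly the whole actin pool and all were lower in CNT1. ACT2 (AT3G18780, chromosome 3, 6474710 to 6477204 in TAIR10.1, 4 exons, the first non-coding) was the most abundant member. It was read at 502 and 526 RPKM in CNT1 replicates 1 and 2 and at 778 and 767 RPKM in CNT1-G283E replicates 1 and 2. The groups did not overlap, and the CNT1 libraries were the low ones. Means were 514 ± 16.6 and 773 ± 7.76 RPKM (SD, n = 2 each), a 1.504-fold lower level in CNT1, and the difference was -0.59 ± 0.043 (log2, SE; limma adjusted p = 1.46e-05). These levels rest on 25151 to 36981 reads per library, as recovered from the values. In RNA from seedlings, fewer cells of a type and less RNA per cell cannot be told apart.

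ACT8 (AT1G49240, chromosome 1, 18215800 to 18218339, 5 exons) was read at 339 and 340 RPKM in CNT1 and at 454 and 460 RPKM in CNT1-G283E. All CNT1 values again lay below all CNT1-G283E values. The level was 1.34-fold lower in CNT1, with a difference of -0.43 ± 0.038 (log2, SE; limma adjusted p = 4.27e-05). ACT7 (AT5G09810, chromosome 5, 3052062 to 3054691, 5 exons), the auxin-responsive member, was read at 291 and 290 RPKM in CNT1 and at 429 and 415 RPKM in CNT1-G283E. Here too the groups stood apart, with a 1.45-fold lower level in CNT1 and a difference of -0.54 ± 0.039 (log2, SE; limma adjusted p = 1.40e-05). By mean RPKM over the 4 libraries, all 3 lay within the 261 highest of all gene models, with ACT2 first of them.

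The reproductive genes split into 3 that were detected well above 1 RPKM and 2 near the limit of detection. ACT11 (AT3G12110, chromosome 3, 3857780 to 3860089, 5 exons) had the widest difference of the tested members. It was read at 11.3 and 10.9 RPKM in CNT1 and at 33.6 and 32.7 RPKM in CNT1-G283E, from 464, 441, 1305 and 1147 reads. Both CNT1-G283E libraries were far above both CNT1 libraries, with means of 33.2 ± 0.631 and 11.1 ± 0.282 RPKM (SD, n = 2 each). The level was 2.98-fold lower in CNT1, and the difference was -1.49 ± 0.055 (log2, SE; limma adjusted p = 4.58e-07). Of all tested genes, 1.65% had a lower log2 difference than ACT11, against 12.7% for ACT2, 13.97% for ACT7 and 17.98% for ACT8.

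ACT1 and ACT3 encode the same protein, and of them ACT1 was called lower and ACT3 was not called. ACT1 (AT2G37620, chromosome 2, 15778941 to 15781561, 5 exons) was read at 24.9 and 26.8 RPKM in CNT1 and at 29.9 and 30.6 RPKM in CNT1-G283E. The groups did not overlap, but the step was small, a 1.17-fold lower level in CNT1 with a difference of -0.22 ± 0.055 (log2, SE; limma adjusted p = 0.00929). That call was lost without CNT1 replicate 1 (-0.17, adjusted p = 0.0969) and without a filter on low values (adjusted p = 0.0604). AS1, the gene that overlaps ACT1, was also lower, by a similar -0.25 ± 0.041 (log2, SE; limma adjusted p = 0.00120), and its part in the ACT1 value was not tested. ACT3 (AT3G53750, chromosome 3, 19915257 to 19917775, 5 exons) was read at 18.3 and 20.9 RPKM in CNT1 and at 18.2 and 19.7 RPKM in CNT1-G283E. The ACT3 values of both groups overlapped, with a difference of 0.04 (95% interval -0.13 to 0.22, log2; limma adjusted p = 0.650). The ratio of ACT3 to ACT1 within a library was 0.736 and 0.781 in CNT1 and 0.610 and 0.644 in CNT1-G283E. These ratios did not overlap, but an exact permutation test of 2 against 2 libraries cannot give a two-sided p below 0.333, the value obtained.

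ACT4 (AT5G59370, chromosome 5, 23949661 to 23951837) and ACT12 (AT3G46520, chromosome 3, 17128211 to 17131466) stayed under 1 RPKM in every library and were not tested. ACT4 was read at 0.182 and 0.0230 RPKM in CNT1 and at 0.239 and 0.0795 RPKM in CNT1-G283E, from 8, 1, 10 and 3 reads. The values of both groups overlapped, and the summed reads gave a ratio of CNT1-G283E to CNT1 of 1.59 with an exact 95% counting interval of 0.628 to 4.21. ACT12 had 0 and 1 reads in CNT1 and 4 and 1 reads in CNT1-G283E, and was read at 0, 0.0245, 0.102 and 0.0282 RPKM. The floor set for a count of 0 is 3 reads, or 0.0724 RPKM in CNT1 replicate 1, and the summed reads gave a ratio of 5.50 with an interval of 0.615 to 260.0. At this depth no difference was detectable for either gene, and the intervals cover counting error only.

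**Figure D2:**
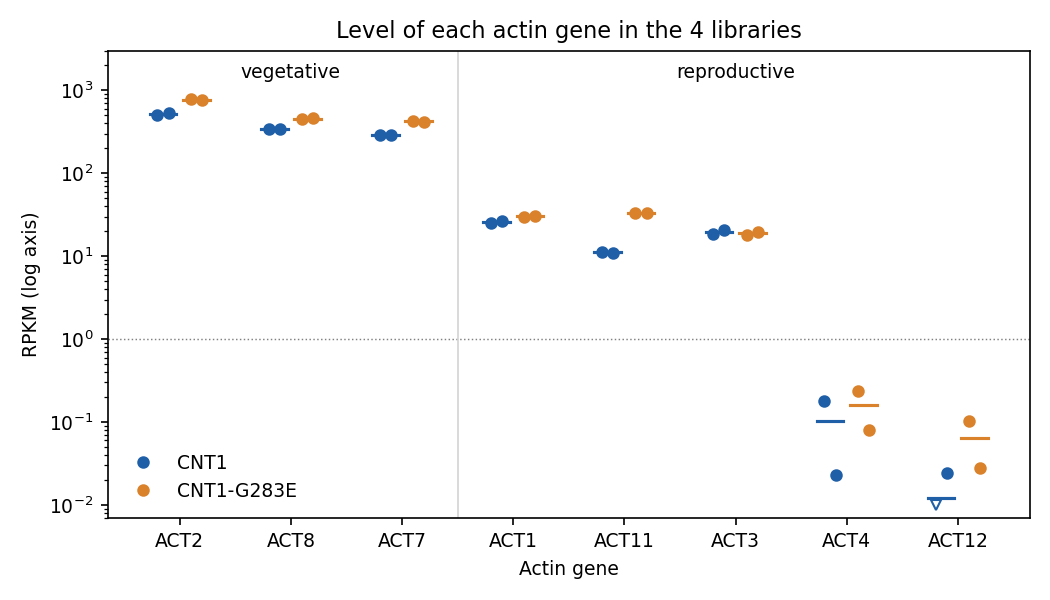
RPKM (log axis) of each actin gene in the 4 libraries, with points for libraries, horizontal bars for group means, and an open triangle for a value of 0 drawn at the bottom of the axis. ACT2, ACT8, ACT7, ACT1 and ACT11 were lower in both CNT1 libraries, ACT3 overlapped between groups, and ACT4 and ACT12 lay under 1 RPKM (dotted line).

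Of the 6 members tested, 5 were called lower in CNT1, 1 was not called and 0 were called higher, in limma with Benjamini-Hochberg adjustment over 19201 genes and a threshold of 0.05. Among all tested genes, 29.0% were called lower, 31.1% higher and 60.0% either way. The median log2 difference was -0.48 over the 6 members and 0.03 over all tested genes. All 6 passed the low-value filter in both groups. The members called lower kept a negative difference in each of the 4 other scalings (quantile, upper quartile, median of ratios, and rescaling without organelle genes and the 20 most abundant genes).

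Markers of organs and cell types moved in the same libraries. Of 5 tested root markers 4 were lower and 1, SCR, higher, and the summed level of all 6 was 155 to 159 RPKM in CNT1 and 300 to 319 RPKM in CNT1-G283E, with NRT2:1 at or near 0. All 5 xylem markers were lower, summing to 169 to 170 RPKM in CNT1 and 303 to 321 RPKM in CNT1-G283E. All 6 mesophyll markers, which are photosynthesis genes, were higher, summing to 19350 to 19660 RPKM in CNT1 and 7013 to 7396 RPKM in CNT1-G283E. For all these markers, a change in cell content and a change in level per cell cannot be told apart. The part of these shifts in the actin difference was not tested. None of 6 root-hair markers was called, and their sums overlapped between groups, at 32.4 to 34.0 RPKM in CNT1 and 30.0 to 44.6 RPKM in CNT1-G283E. Of 7 pollen markers 6 stayed under 1 RPKM in every library, and AGP6 was read at 1.42 ± 0.127 RPKM in CNT1 against 0.198 ± 0.0169 in CNT1-G283E (SD, n = 2), passing the low-value filter only through CNT1. CRY1 was read at 824 ± 1.56 RPKM in CNT1 against 1094 ± 82.0 in CNT1-G283E (SD, n = 2), and since both groups carry a CRY1 transgene it does not check the labels. CRY1 was called lower in CNT1, at -0.41 ± 0.058 (log2, SE; limma adjusted p = 0.000534). The part of that difference in the actin difference was not tested.

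The summed level of the family was 1187 and 1215 RPKM in CNT1 and 1743 and 1725 RPKM in CNT1-G283E. The pool was 1.44-fold lower in CNT1 by group means, at -0.53 (log2), with an exact permutation p of 0.333, the lowest the design allows. Of the read totals recovered from the RPKM values, actin reads were 0.204% and 0.209% in CNT1 and 0.2996% and 0.2965% in CNT1-G283E. ACT2 accounted for 48.5% of the difference in the pool, ACT7 for 24.7%, ACT8 for 21.9% and ACT11 for 4.13%. Both classes shifted by nearly the same factor, the vegetative sum being 1.44-fold and the reproductive sum 1.46-fold lower in CNT1. In the reproductive sum, ACT11 gave 22.0 of the 25.9 RPKM by which the groups differed.

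Within the pool, no gene's mean share differed between groups by more than 1.96 percentage points, the value for ACT8. ACT2 held 42.3% and 43.2% of the summed actin RPKM in CNT1 and 44.6% and 44.5% in CNT1-G283E. ACT8 held 28.6% and 28.0% in CNT1 against 26.02% and 26.65% in CNT1-G283E, and the share of ACT7 overlapped between groups at 23.9% to 24.6%. The reproductive genes together held 4.604% and 4.827% in CNT1 and 4.71% and 4.81% in CNT1-G283E, again overlapping. Inside that class the order changed. ACT11 held 0.956% and 0.901% of the pool in CNT1 and 1.93% and 1.90% in CNT1-G283E, while ACT1 held 2.093% and 2.203% against 1.71% and 1.77%. Shares within a library do not change when each library is multiplied by 1 factor, which does not cover quantile scaling. The shares that did not overlap each had an exact permutation p of 0.333, the lowest possible.

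**Figure D3:**
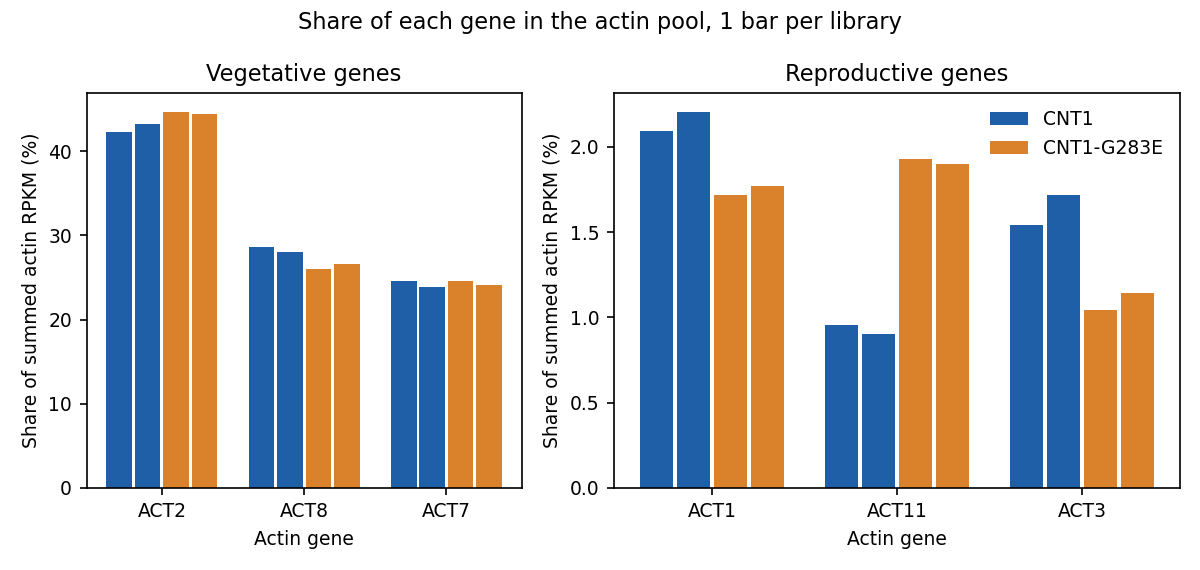
Share of the summed actin RPKM (%) held by each of the 6 well-detected genes, 1 bar per library, with separate axes for both classes. Vegetative shares stayed within a few percentage points, while ACT11 went from 1.91% in CNT1-G283E to 0.928% in CNT1 (means of 2 libraries).

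Ordered by level, ACT2 stood above ACT8, ACT8 above ACT7, and ACT7 above all reproductive genes in each group, with no overlap between neighbours. ACT7 was 11.3-fold above ACT1 in CNT1. In CNT1-G283E, ACT11 came next after ACT7 at 33.2 RPKM, just above ACT1 at 30.2 RPKM, and in CNT1 it fell behind both ACT1 and ACT3 at 11.1 RPKM. ACT4 and ACT12 were last in both groups and could not be ordered against each other.

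The promoters of the vegetative genes are shown because these genes had differences of like size. Each line gives 250 bases before the annotated start, 5′ to 3′ on the plus strand of TAIR10.1, at chr3:6474460-6474709 for ACT2, chr5:3051812-3052061 for ACT7 and chr1:18215550-18215799 for ACT8. Capitals mark matches, on either strand, to the light-response elements CACGTG (G-box) and CACATG, the TATA motif TATAAA or the auxin-response element TGTCTC.
ACT2: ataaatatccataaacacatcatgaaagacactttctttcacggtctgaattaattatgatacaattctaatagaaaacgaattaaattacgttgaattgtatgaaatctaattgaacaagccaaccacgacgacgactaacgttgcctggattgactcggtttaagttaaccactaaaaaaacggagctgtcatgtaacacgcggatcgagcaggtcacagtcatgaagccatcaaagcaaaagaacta
ACT7: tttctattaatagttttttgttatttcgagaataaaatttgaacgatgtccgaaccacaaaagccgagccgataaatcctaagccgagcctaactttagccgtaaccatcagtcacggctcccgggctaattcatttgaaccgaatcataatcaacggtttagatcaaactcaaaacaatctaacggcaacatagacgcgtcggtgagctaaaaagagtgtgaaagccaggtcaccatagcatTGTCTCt
ACT8: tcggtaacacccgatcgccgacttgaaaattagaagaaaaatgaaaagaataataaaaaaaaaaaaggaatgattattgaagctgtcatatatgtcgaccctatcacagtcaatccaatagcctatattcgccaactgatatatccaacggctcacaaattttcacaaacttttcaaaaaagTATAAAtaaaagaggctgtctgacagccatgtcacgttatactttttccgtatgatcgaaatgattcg
ACT2 held none of the 4 motifs, ACT7 held TGTCTC starting 7 bases before the annotated start, and ACT8 held TATAAA starting 68 bases before it. No motif occurred in more than 1 of these 3 windows. Over all 8 members, TATAAA occurred in 3, CACGTG in 1 (ACT12), TGTCTC in 1 and CACATG in 0. Of 26694 nuclear promoters of the same length, 47.7% held TATAAA, 6.74% CACGTG, 11.1% TGTCTC and 11.0% CACATG. These are matches of letters only, in a short window.

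Proteins that bind actin or build filaments were listed in 7 groups with 96 genes, of which 85 were tested, 23 called higher and 31 lower in CNT1, where 31.1% of all tested genes were called higher and 29.0% lower. These shares are near that background, and nothing particular to the 96 genes is read from them. The median difference over the 85 was -0.02 (log2), against 0.03 over all tested genes. The number called higher fell to 15 without CNT1 replicate 1. Differences between the groups were not tested, and the counts of each group are a description beside the same background.

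Profilins deliver actin monomers to growing filament ends. Of 5 genes 4 were tested, with 3 called lower and 1 higher (2 higher without a low-value filter). PRF1 was read at 189 ± 1.08 RPKM in CNT1 against 413 ± 6.62 in CNT1-G283E (SD, n = 2), and PFN2 (profilin 2) at 456 ± 2.35 and 710 ± 3.11. PRF3 went the other way, at 56.9 ± 4.75 RPKM in CNT1 against 20.4 ± 0.143 in CNT1-G283E, a difference of 1.44 ± 0.062 (log2, SE; limma adjusted p = 8.96e-07). The summed actin level was 1.67 and 1.74 times the summed profilin level in CNT1 and 1.53 and 1.495 times in CNT1-G283E. Among 14 depolymerising and turnover factors, chiefly actin depolymerising factors, 12 were tested, 8 were called lower and 0 higher. Of all tested genes, 29.0% were called lower and 31.1% higher. The count of 0 did not hold without CNT1-G283E replicate 2. ADF3 was 1.501-fold and ADF5 1.39-fold lower in CNT1. The summed actin level over that of ADF1 to ADF11 was 1.75 and 1.86 in CNT1 and 1.99 and 1.93 in CNT1-G283E.

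Of 16 tested genes for bundling proteins and proteins at filament ends, 4 were called higher and 8 lower. The 4 became 2 without CNT1 replicate 1 and without a low-value filter. PLIM2b, a LIM-domain protein known to bundle filaments, was 3.02-fold lower in CNT1, at 20.1 ± 1.36 against 60.9 ± 1.46 RPKM (SD, n = 2). AT5G48460, annotated as an actin-binding calponin homology protein, was 2.77-fold lower. FIM1, a fimbrin that crosslinks filaments, was 1.70-fold higher, and CPB, a subunit of the capping protein that blocks filament ends, was 1.62-fold higher. Of 13 tested formins, which nucleate and elongate filaments, 6 were called higher and 2 lower. Under the stricter filter of a mean of at least 5 RPKM 1 was lower, as AT2G43800 averaged less and was not tested there. AT1G59910 and AFH1 were 1.55-fold and 1.41-fold higher, and AT5G07770 was 2.44-fold lower.

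The ARP2/3 complex nucleates branched filaments and is activated by the SCAR/WAVE complex. Of 20 genes tested, 7 were called higher and 6 lower, none 2-fold, shares close to the 31.1% and 29.0% of all tested genes. The 7 became 4 without CNT1 replicate 1 and 3 without CNT1 replicate 2. The 6 became 3 without a low-value filter. Under the stricter filter 3 were also left, as arpc2b, AT2G34150 and ABIL3 averaged under 5 RPKM and were not tested there. ARPC1B and ARPC1A were 1.45-fold and 1.35-fold higher, while ABIL4 was 1.21-fold and BRK1 1.14-fold lower. Myosins move cargo along filaments, and of 13 tested 2 were called higher and 3 lower. The 2 became 1 in 5 alternatives and the 3 became 5 in limma-voom and without a low-value filter. XIK, a main driver of organelle movement, was read at 22.6 ± 0.0536 RPKM in CNT1 against 36.1 ± 1.64 in CNT1-G283E (SD, n = 2), MYA2 was 1.23-fold lower and VIIIA 1.22-fold higher. Of 7 actin-related proteins of the nucleus, 3 were called higher and 1 lower, with ARP9 1.97-fold and ARP6, a chromatin remodelling subunit, 1.34-fold higher and ARP8 1.21-fold lower. Among 3 further actin-like loci, AT2G42170 alone passed the filter, at 14.1 ± 0.720 against 15.3 ± 0.225 RPKM (limma adjusted p = 0.148).

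**Figure D4:**
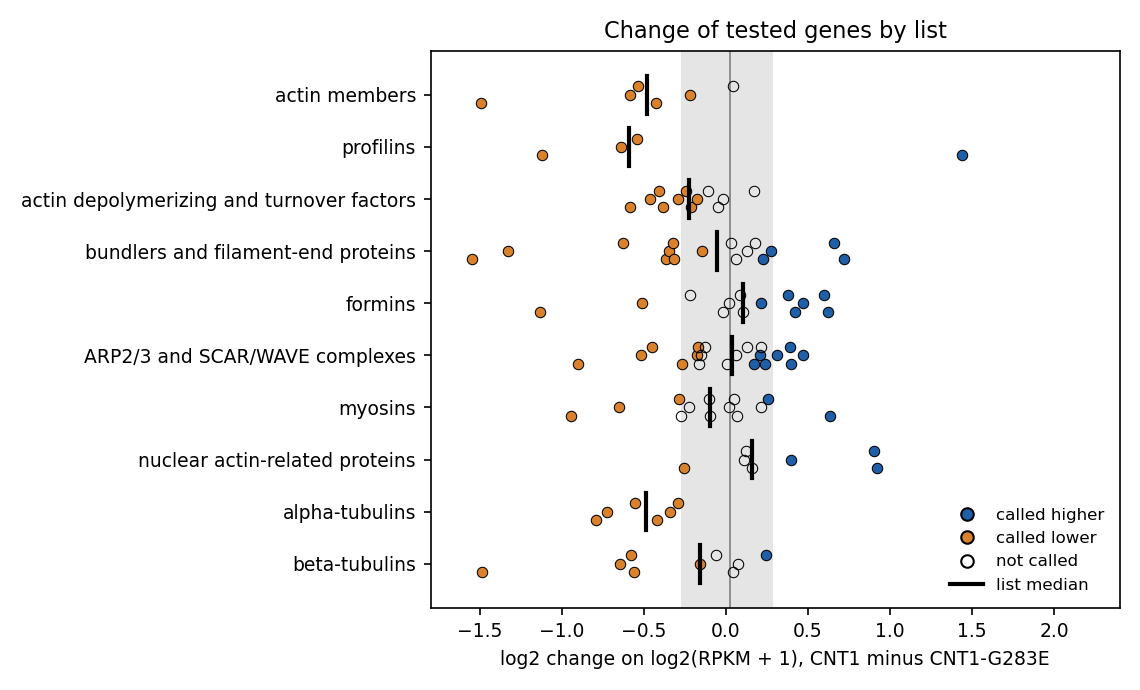
Log2 difference on the log2(RPKM + 1) scale (x axis, CNT1 minus CNT1-G283E) of each tested gene in the actin, actin-binding and tubulin lists, with filled points for called genes, open points for genes not called and black bars for list medians. The grey band spans the middle 50% of all tested genes (-0.27 to 0.28), and the medians of actin, profilin and alpha-tubulin genes lay to its left.

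Tubulins, the subunits of microtubules, were the nearest comparison among cytoskeletal genes. Beside the 29.0% of all tested genes called lower and 31.1% called higher, all 6 alpha-tubulin genes were called lower, with a median of -0.49 (log2) beside -0.48 for the tested actin genes, TUA1 and TUA3 being 1.76-fold and 1.66-fold lower. Of 9 beta-tubulin genes, 5 were called lower and 1 higher, the 1 becoming 2 without CNT1-G283E replicate 2, with a median of -0.16. TUB8 was 2.84-fold and TUB7 1.58-fold lower, and TUB2 was 1.19-fold higher, although tubulin genes include near-identical copies whose reads may be shared. The summed actin level was 0.761 and 0.764 of the alpha-tubulin sum in CNT1 and 0.805 and 0.786 in CNT1-G283E. Against the beta-tubulin sum it was 0.748 and 0.764 in CNT1 and 0.882 and 0.887 in CNT1-G283E, with an exact permutation p of 0.333 for both ratios.

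The genes whose profile over the 4 libraries lay closest to that of the summed actin level were sought among the 2748 other genes averaging 50 RPKM or more, by Euclidean distance of centred log2(RPKM + 1) values. They were HB-1, a homeobox gene (distance 0.0204), MPK17, a MAP kinase gene (0.0227), AT3G15630 (0.0242), TUA4 (0.0243) and AT3G54400, an aspartyl protease family gene (0.0269). HB-1 was read at 110 and 111 RPKM in CNT1 and 163 and 160 RPKM in CNT1-G283E, and TUA4 at 381 and 388 RPKM in CNT1 and 569 and 560 RPKM in CNT1-G283E. With 4 libraries in 2 groups, a small distance needs mainly a group difference of like size.

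Of the other genes used as internal references, some were called lower like actin, and others were called higher or not called. TIP41-like AT4G34270 was read at 24.7 ± 0.594 RPKM in CNT1 against 24.1 ± 0.403 in CNT1-G283E (SD, n = 2), a difference of 0.03 ± 0.051 (log2, SE; limma adjusted p = 0.598). The SAND family gene AT2G28390 was at 0.14 ± 0.057 (adjusted p = 0.0627) and was not called either. UBQ10, a polyubiquitin gene, was 1.19-fold and PEX4 (UBC21), a ubiquitin-conjugating enzyme gene, 1.27-fold lower in CNT1. GAPC1, a glycolytic enzyme gene, was 1.41-fold, the elongation factor gene AT5G60390 1.24-fold and PP2AA3, a phosphatase subunit gene, 1.11-fold higher. AT5G60390 belongs to a family of near-identical copies, so its reads may be shared. AT1G58050, an RNA helicase gene, stayed under 1 RPKM in all libraries and was not tested. Of 7 tested references 3 were called higher and 2 lower, beside 31.1% and 29.0% of all tested genes, and nothing particular to them is read from these counts. The 2 called lower became 1 without a low-value filter, and that count also did not hold when either CNT1 library was left out.

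Dividing each library by the level of 1 gene shifts the other genes by about that gene's own difference. Low genes shift less, because the pseudocount of 1 is added after the division. The splits below therefore follow largely from the differences given above and are no separate result on the references. They show how far the count of calls depends on the reference used. With RPKM as deposited, 5964 genes were called higher and 5566 lower, so that 51.7% of calls were higher. With every library divided by its ACT2 level, 14604 were called higher and 1868 lower, or 88.7% higher, and the median of all tested genes moved from 0.03 to 0.55 (log2). Scaling to ACT7 gave 87.5% higher, to ACT8 84.1%, and to the sum of the 8 actin genes 87.2%. With UBQ10 the share was 75.4% and with PEX4 81.4%. With GAPC1 it was 11.8%, with AT5G60390 20.6%, with AT2G28390 34.2% and with PP2AA3 34.9%. With AT4G34270, whose own difference was 0.03, it was 47.4%. The ACT2 level over that of AT4G34270 was 20 and 21.7 in CNT1 and 32.7 and 31.5 in CNT1-G283E. Over GAPC1 it was 1.39 and 1.44 in CNT1 and 2.98 and 3.01 in CNT1-G283E.

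**Figure D5:**
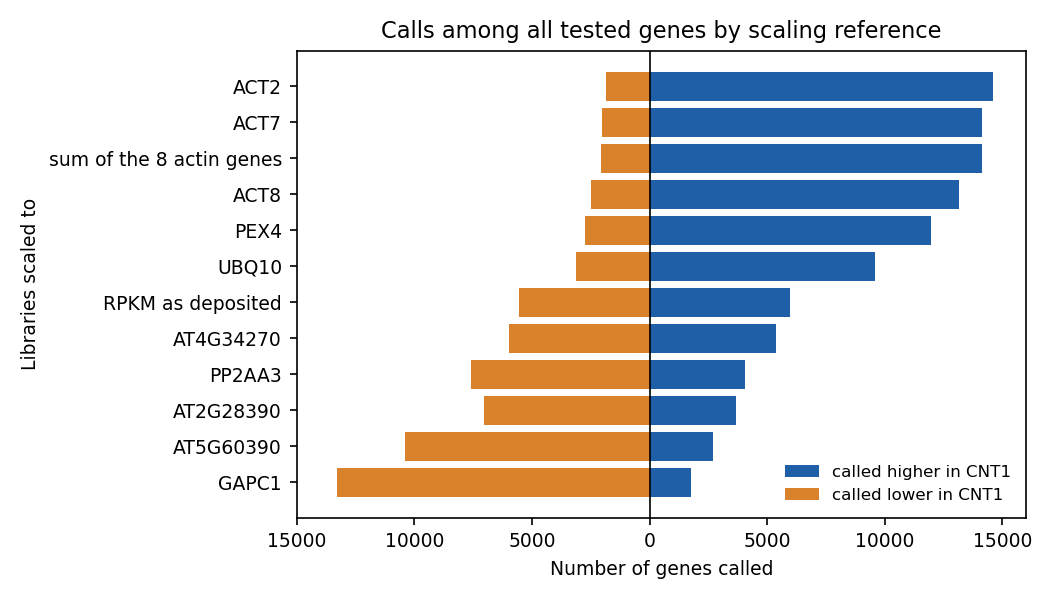
Number of genes called higher (right) and lower (left) in CNT1 among 19201 tested genes, by the gene each library was scaled to, with RPKM as deposited for comparison. Scaling to actin genes left 1868 to 2486 genes lower, and scaling to GAPC1 left 13275 lower.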

How the data were processed

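Libraries were prepared from poly(A) RNA by Illumina's protocol, per the labels' protocols. Bowtie2 (2.2.2) and TAIR10 are named, without their roles, per the submitters' processing notes. The authors deposited RPKM per gene model, 1 table per library. Read assignment is not given in the sources used here. Whole-number depths of 28524534 and 28098772 (CNT1) and 27065174 and 24436863 reads (CNT1-G283E) were recovered from RPKM and exon lengths. At these depths 100.0% of 24360 rows above 0 were whole within 0.001 reads, with 4784 at the annotated length and 19576 at a fitted length, which fixes reads up to a whole-number factor. The 8 actin genes all needed fitted lengths (1618 bases for ACT1, annotated at 1851).

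The values were tested as log2(RPKM + 1) with limma 3.58.1 in R 4.3.3, the test planned for RPKM (group term, trend, Benjamini-Hochberg over the 19201 genes that reached 1 RPKM in 2 or more libraries). Such differences understate low genes. Folds are ratios of mean RPKM. Single values were compared by two-sided exact permutation tests (scipy 1.17.1, Python 3.11.15). The members and lists were chosen with earlier results of these data known. Named list genes are, in each list and direction, the 2 called genes with the largest log2 difference among those averaging at least 5 RPKM, besides all members and references and the 5 genes most like actin. The fit was tested on simulated data. TAIR10.1 annotation matched 26719 of 27416 rows by locus. Its nuclear coordinates and sequences (RefSeq) are those printed. Alternatives were 4 scalings, a pseudocount of 0.1, no filter or a mean of at least 5 RPKM, no trend, limma-voom on recovered reads, a replicate block and leaving out each library.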

Additional observations from a re-analysis of the deposited data

How the results depend on the processing

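ACT2, ACT7, ACT8 and ACT11 were called lower under all 14 alternatives run on the limma fit. Over those alternatives the log2 difference lay between -0.62 and -0.55 for ACT2, -0.56 and -0.51 for ACT7, -0.45 and -0.41 for ACT8, and -1.57 and -1.47 for ACT11. ACT1 was not called without a low-value filter or without CNT1 replicate 1, and ACT3, never called, ranged from -0.0485 to 0.1346 with each library left out, changing sign to -0.0485 without CNT1 replicate 2 and to -0.0098 without CNT1-G283E replicate 1; the cause was not tested. The number of actin genes called lower was 4 or 5 throughout. With each library left out in turn, actin-binding and actin-related genes called higher ranged from 15 to 24 and those called lower from 24 to 32. The log2 difference of the actin pool ranged from -0.55 to -0.51 over the scalings and the libraries left out. Differences between replicates 1 and 2 were nearly uncorrelated between the groups (correlation -0.05 over 14404 genes). No large effect shared by replicate number was seen, but whether the libraries were prepared in pairs is not stated. With the replicate block 5 actin genes were lower and 0 higher, and 20 actin-binding and actin-related genes were higher and 28 lower. Fits without 1 library leave a lone sample in that group, assumed to vary like the other group. Depth limits ACT4 and ACT12 most, with at most 10 reads a library, and ACT1, ACT3 and ACT11 rest on 441 to 1309 reads a library. For ACT3 the CNT1 replicates also stood apart, at 18.3 and 20.9 RPKM. Small differences may therefore go uncalled.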
